A study of Mus musculus with 2 samples.

Results

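Phase II conjugating enzymes attach a polar group to a foreign or endogenous molecule so that it can be carried out of the cell. The 6 described here, of 31053 genes in the deposited matrix, are the sulfotransferases Sult1c1, Sult6b1 and Sult1d1, the glutathione S-transferases Gstm1 and Gstm2, and the UDP-glucuronosyltransferase Ugt2a1. They were taken by gene symbol, and each symbol matched 1 feature. Sulfotransferases move a sulfate group from the donor PAPS to a hydroxyl or amine, glutathione S-transferases couple glutathione to reactive compounds, and UDP-glucuronosyltransferases add a sugar acid. In the nose these enzymes follow the cytochrome P450 (phase I) step in the clearance of inhaled chemicals and odorants, a task for which the sustentacular cells, the tall supporting cells of the olfactory epithelium, are known.

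The cells came from the main olfactory epithelium of a single male C57BL/6 mouse. One nostril had been occluded (unilateral naris occlusion) at postnatal day 14 and the tissue was collected at postnatal day 28. The closed side and the open side each gave 1 library from frozen dissociated cells, so there are no replicates, no test between libraries could be made, and p-values are not given. The barcodes carry suffix 1 or 2, the sources used here do not tie a suffix to a side, and no side is assigned: the libraries are called library 2 and library 1, and ratios are library 2 over library 1. Both libraries share the mouse, the occlusion and the preparation, so the open side is not tissue of an unoperated animal.

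Library 2 kept 5266 cells with a median of 5139.5 UMIs (unique molecular identifiers, each standing for 1 captured RNA molecule), and library 1 kept 3032 cells with a median of 5528 UMIs. Levels are CPM, a gene's UMIs summed over the cells of a class and scaled to a common total of UMIs of all genes. Brackets give exact 95% intervals (Poisson for CPM, Clopper-Pearson for shares of cells), which cover counting error alone. Cells were clustered without any phase II gene, and clusters were named from marker genes as "-like" classes. The sustentacular-like class was 1 cluster of 1765 cells in which all 8 of its markers were at or above 10 CPM and 7 were higher than in any other named class. Of the defining markers of the other classes used below, Moxd2 was at 0 in ionocyte-like cells and Mxd3 at 0 in INP-like cells. The other epithelial and neuronal classes with at least 50 cells were gland (Bowman gland-like), respiratory ciliated-like, 2 microvillous classes (ionocyte-like and tuft-like), horizontal basal cell-like (HBC-like), globose basal cell-like (GBC-like), immediate neuronal precursor-like (INP-like), and immature and mature olfactory sensory neuron-like (OSN-like). Across the libraries 12 barcode sequences occur in both, 6 of them among kept cells.

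All 6 genes lie on the minus strand of GRCm38, which is the mm10 build named in the submitters' processing notes. Sult1c1 spans chr17:53961615-53990674 and Sult6b1 chr17:78883938-78906992. Sult1d1 is at chr5:87554645-87569027, between Sult1b1 and Sult1e1 (the oestrogen sulfotransferase), and Ugt2a1 at chr5:87459490-87490871. Gstm2 at chr3:107981702-107986453 and Gstm1 at chr3:108012255-108017973 stand in the Gstm gene cluster. The library kit counts 3′ ends, so the last 500 bases of each principal transcript were compared with all GENCODE M21 transcripts in windows of 50 bases. For Ugt2a1, 100% of the windows were also present in Ugt2a2, whose exons at that end are shared, so how reads divided between these genes is uncertain. For Gstm2 the share was 3.1% (a pseudogene, Gm6665), for Gstm1 0.887% (Gstm3), and for the 3 sulfotransferases 0.

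The sequences just before the transcription starts of the 5 enzymes whose cell-by-cell patterns are compared below are shown to place those patterns beside the genes they concern. They are RefSeq promoter sequences (GRCm38.p6, minus strand, 5′ to 3′), ending where the GENCODE gene begins. Capitals mark the only motif found among those searched. The coordinates are chr17:53990675-53990881 for Sult1c1, chr17:78906993-78907242 for Sult6b1, chr5:87569028-87569256 for Sult1d1, chr3:108017974-108018223 for Gstm1 and chr3:107986454-107986670 for Gstm2.
Sult1c1: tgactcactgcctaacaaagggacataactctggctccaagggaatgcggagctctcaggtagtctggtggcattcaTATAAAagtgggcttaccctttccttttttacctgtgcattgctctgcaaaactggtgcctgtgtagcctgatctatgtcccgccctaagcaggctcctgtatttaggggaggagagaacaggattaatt
Sult6b1: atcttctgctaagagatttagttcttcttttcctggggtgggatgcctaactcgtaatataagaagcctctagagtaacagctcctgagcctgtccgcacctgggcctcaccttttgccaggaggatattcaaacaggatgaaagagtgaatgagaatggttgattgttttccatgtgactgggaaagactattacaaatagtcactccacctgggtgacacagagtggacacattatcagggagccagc
Sult1d1: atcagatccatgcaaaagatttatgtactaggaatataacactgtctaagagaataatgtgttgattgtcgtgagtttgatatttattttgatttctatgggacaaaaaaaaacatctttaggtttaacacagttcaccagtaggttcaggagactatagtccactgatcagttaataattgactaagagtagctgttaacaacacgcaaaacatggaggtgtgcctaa
Gstm1: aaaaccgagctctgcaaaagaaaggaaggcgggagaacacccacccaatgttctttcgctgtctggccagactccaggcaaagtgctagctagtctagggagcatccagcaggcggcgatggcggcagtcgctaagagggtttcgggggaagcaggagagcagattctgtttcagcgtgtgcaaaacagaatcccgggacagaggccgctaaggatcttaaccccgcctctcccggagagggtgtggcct
Gstm2: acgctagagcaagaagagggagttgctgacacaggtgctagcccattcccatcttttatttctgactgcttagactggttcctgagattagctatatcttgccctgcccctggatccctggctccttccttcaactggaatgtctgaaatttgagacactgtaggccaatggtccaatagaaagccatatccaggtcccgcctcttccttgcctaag
Searched on both strands over 250 bases before the RefSeq start were TATAAA, the antioxidant response element core TGACNNNGC, the E-box CAGATG and the forkhead core TGTTTAC. Of 32851 RefSeq promoters, 12.4% hold TATAAA, 10.2% TGACNNNGC, 14.4% CAGATG and 3.17% TGTTTAC. Of these, TATAAA occurs at position -173 for Sult1c1, at -168 for Ugt2a1 (not shown) and at -30 for a second RefSeq start of Gstm1 (not shown), counted from each start. The other 3 motifs have no match in any of the windows, which says only that these letters are not there. GC content of the searched window was 57.6% for Gstm1, 50% for Sult1c1, 49.6% for Gstm2, 46% for Sult6b1, 34% for Sult1d1 and 30.8% for Ugt2a1.

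The first question was which cells hold which enzyme. In pooled libraries and among the 10 named classes, 4 of the 6 enzymes (Sult1c1, Gstm1, Gstm2 and Ugt2a1) were highest in sustentacular-like cells. Sult6b1 was highest in INP-like cells and Sult1d1 in mature OSN-like cells. Clusters left without a name were not ranked, and for Sult1c1 some of them stood higher. Cluster 13 held 496 CPM and cluster 19 held 465 CPM, beside 425 CPM in sustentacular-like cells. Of 6998 genes at 50 CPM or more in at least 1 of the 10 classes, 9.5% were highest in sustentacular-like cells, 10.2% in INP-like cells and 18.1% in mature OSN-like cells. The 3 sulfotransferases thus had 3 different leading classes, while both glutathione S-transferases had the same one.

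Gstm1 was the most abundant of the 6. Its level in sustentacular-like cells was 10544 CPM (10475 to 10613) in library 2 and 11419 CPM (11331 to 11507) in library 1. Among 1765 sustentacular-like cells 98.7% (98.0 to 99.2) held at least 1 Gstm1 UMI. Tuft-like cells followed at 6952 CPM, ionocyte-like cells at 5089 CPM, HBC-like cells at 2634 CPM (2589 to 2680) and respiratory ciliated-like cells at 1623 CPM. The gland level was 414.5 CPM (394 to 436), and the neuronal classes lay between 87.3 CPM in mature OSN-like cells and 148 CPM in immature OSN-like cells. Levels in the microvillous classes were carried by part of the cells, with a UMI in 65.4% of tuft-like and 85.1% of ionocyte-like cells, and 3 cells held 31.7% of the tuft-like UMIs.

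Within basal cells Gstm1 divided the 2 HBC-like clusters. Cluster 3, with Krt5 and Trp63 among its leading genes, held 4661 CPM in library 2 and 3626 CPM in library 1. Cluster 5, led by Krt15, held 777 CPM in library 2 and 718 CPM in library 1. Gstm2 followed the same order at a lower level, with 1064 CPM in cluster 3 and 242 CPM in cluster 5.

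Gstm2 had the same order of classes as Gstm1 at lower levels. It was found at 1585 CPM (1559 to 1612) in library 2 and 1657 CPM (1624 to 1691) in library 1 in sustentacular-like cells, and at 1003 CPM in tuft-like, 797 CPM in ionocyte-like, 685 CPM in HBC-like, 154 CPM in Bowman gland-like and 16.0 CPM in mature OSN-like cells. Across 32 points (16 classes in 2 libraries), Pearson's r between log levels of Gstm1 and Gstm2 was 0.957, and among 14106 genes only Ephx1 (microsomal epoxide hydrolase, a phase I enzyme) was closer to Gstm1, at 0.959. The next were Gchfr at 0.946, Aox2 (an aldehyde oxidase) at 0.942 and Il33 at 0.941. The genes closest to Gstm2 were Cryl1 and Ephx1 at 0.960, Hlf and Gstm1 at 0.957 and Aox2 at 0.956. These correlations describe points that share libraries and free RNA, and carry no test.

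Free RNA in the droplets can give UMIs in cells that do not express a gene. Gstm1 UMIs were found in 30.3% of B lineage-like cells at a median depth of 1522 UMIs, and the gene stood at 759 CPM in library 2 and 245.5 CPM in library 1 in those cells, which should hold none of the sustentacular programme. The ratio of Gstm1 to Cyp2g1 UMIs (Cyp2g1 is a sustentacular P450) was 1.13 in sustentacular-like cells and 1.24 in mature OSN-like cells. It was 3.33 in HBC-like, 10.1 in respiratory ciliated-like and 12.8 in ensheathing glia-like cells. In tuft-like cells it was 1.54 and in ionocyte-like cells 1.61, beside 1.31 in B lineage-like and 1.57 in neutrophil-like cells. Cyp2g1 itself stood at 4508 CPM in tuft-like and 3160 CPM in ionocyte-like cells, so the Gstm1 levels of both microvillous classes move with a sustentacular marker. Doublets were kept, and the part of sustentacular RNA in these levels was not tested. The share of mature OSN-like cells with a Gstm1 UMI, 25.3%, was below that of B lineage-like cells, and no expression is read from it.

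The counted level of Ugt2a1, the olfactory glucuronosyltransferase, was low in sustentacular-like cells and similar in both libraries. Its 3′ end is shared with Ugt2a2, so how much of its RNA was counted is uncertain. Sustentacular-like cells held 88.7 CPM (82.5 to 95.2) in library 2 and 81.4 CPM (74.1 to 89.2) in library 1, and 44.6% of them held a UMI. Tuft-like cells stood at 41.2 CPM, ionocyte-like at 34.9 CPM, HBC-like at 20.1 CPM, Bowman gland-like at 6.2 CPM and mature OSN-like at 0.866 CPM. Its overlapping neighbour Ugt2a2 had the same leading class, with 61.5 CPM in sustentacular-like and 27.5 CPM in tuft-like cells. The ratio of Ugt2a1 to Cyp2g1 UMIs was 0.00914 in tuft-like and 0.0110 in ionocyte-like cells, beside 0.00891 in sustentacular-like cells, so these levels too move with that marker, and its part in them was not tested. The genes most like Ugt2a1 across the 32 points were Muc15 (0.927), Gal3st2b (0.926), Fbp2 (0.922), Acsm3 (0.922) and Atp6v1c2 (0.917).

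Sult1c1, a phenol sulfotransferase family member, was spread over sustentacular-like, ionocyte-like and gland cells. Sustentacular-like cells held 521 CPM (506 to 537) in library 2 and 279 CPM (266 to 293) in library 1. Ionocyte-like cells held 314 CPM (280 to 352) in library 2 and 593 CPM (523 to 669) in library 1. Pooled, these 2 classes had 425 CPM (415 to 436) and 402 CPM (370 to 437), intervals that overlap, so their order is not settled. It turned round when cells with high doublet scores were removed, which left sustentacular-like cells at 427 CPM, and when each cell was given equal weight, which put them at 496 CPM. The share of cells with a UMI did separate them. It was 36.0% (33.7 to 38.3) in sustentacular-like and 78.0% of ionocyte-like cells, at median depths of 6201 and 6456 UMIs, and 21.8% and 48.2% after each cell was thinned to 2000 UMIs. In B lineage-like cells the share was 9.48%. Tuft-like cells held 130 CPM. The ratio of Sult1c1 to Cyp2g1 UMIs was 0.0442 in sustentacular-like, 0.0288 in tuft-like and 0.127 in ionocyte-like cells, beside 0.129 in B lineage-like cells. The part of sustentacular RNA in the microvillous levels was not tested.

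Gland cells differed among themselves in Sult1c1. The gland cluster led by Bpifb3 and Gpx6 (cluster 21) held 327 CPM. That led by the odorant-binding proteins Obp1a and Obp1b (cluster 25) held 30.5 CPM. In cluster 21 the UMIs were concentrated, with 62.6% of the library 2 UMIs and 72.0% of the library 1 UMIs in 3 cells. The HBC-like level was 64.9 CPM, close to the 60.6 CPM of B lineage-like cells, and the neuronal levels were lower still, from 17.4 CPM in INP-like to 36.6 CPM in immature OSN-like cells. Genes most like Sult1c1 across classes were Agr2 (0.910), Dhdh (0.902), Abca13 (0.889), Aqp4 (0.889) and the P450 Cyp2f2 (0.886).

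**Figure D1:**
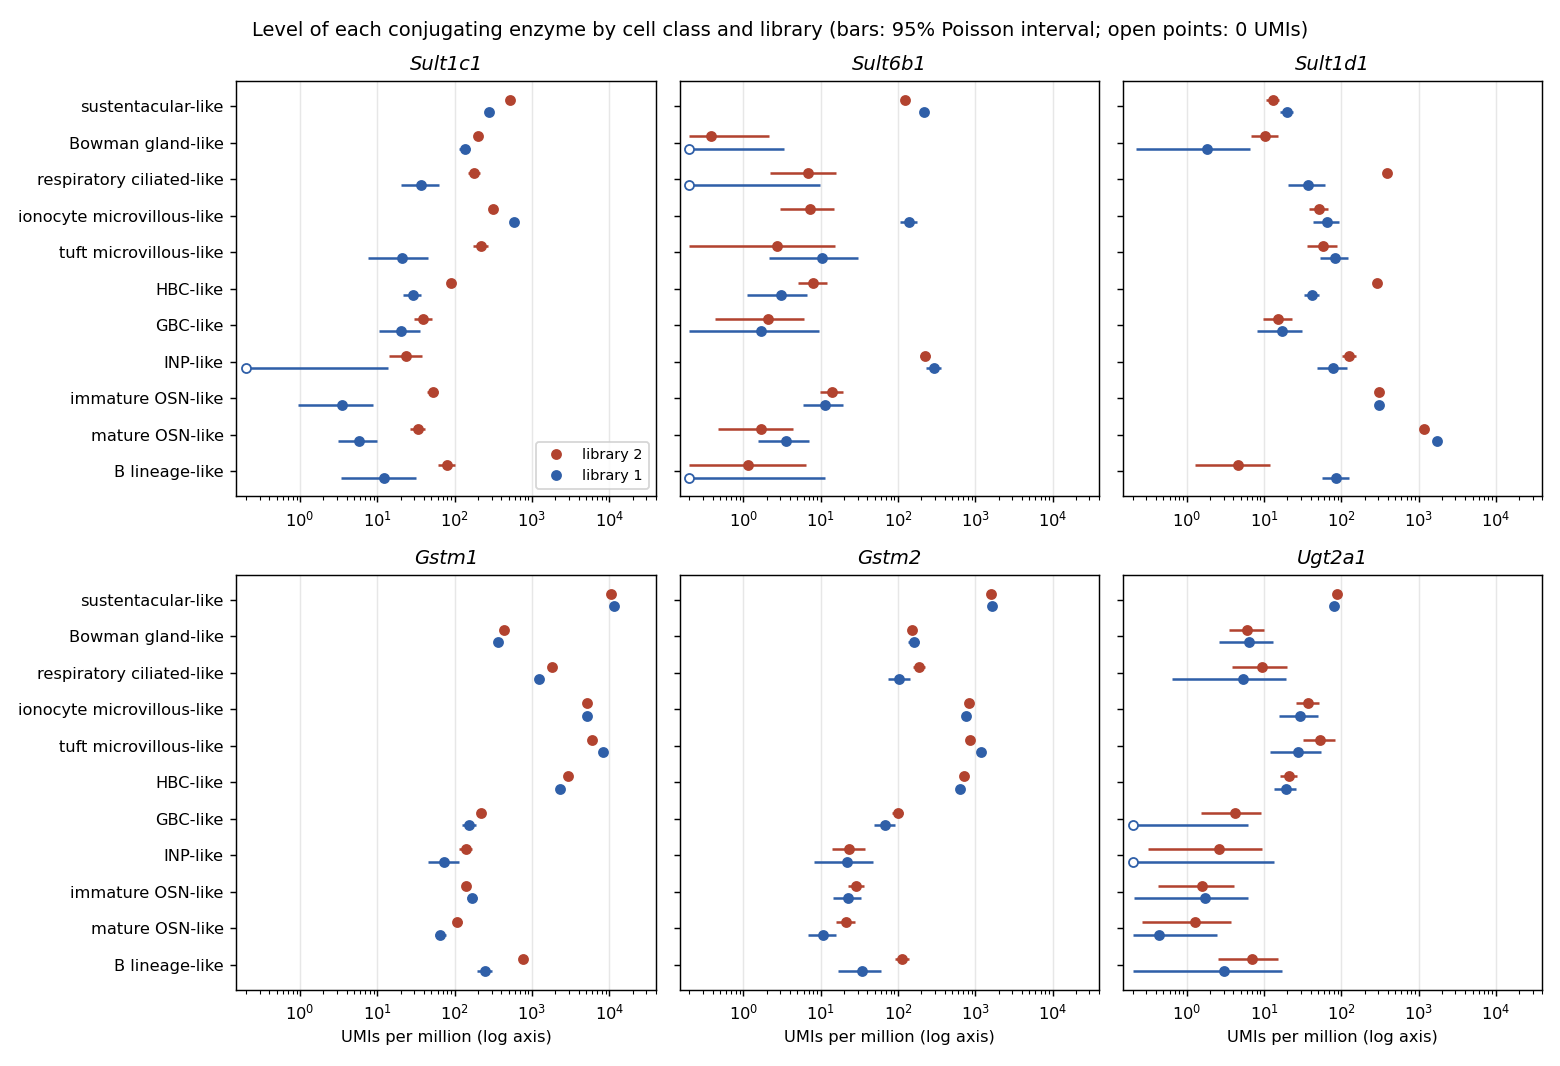
Level of each of the 6 enzymes in CPM (log axis) for 10 epithelial and neuronal classes and for B lineage-like cells, with library 2 above library 1 and bars for 95% Poisson intervals. Gstm1 and Gstm2 have the same order over the 10 classes once the libraries are pooled, Sult6b1 stands out in sustentacular-like and INP-like cells, and Sult1d1 in mature OSN-like cells at 1190 CPM in library 2 and 1747 CPM in library 1.

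The second question was how the sulfotransferases follow the neuronal lineage, in which globose basal cells give rise to Neurod1-positive precursors, then to Gap43-positive immature neurons and to Omp-positive mature neurons. Clusters were ordered by these markers, after the GBC-like cluster 15. Of the 7 clusters, Neurod1 was highest in cluster 18 (unnamed, 1597 CPM) and next in cluster 11 (INP-like, 1400.5 CPM), Gap43 in cluster 2 (immature OSN-like, 1702 CPM), and Omp in cluster 1 (mature OSN-like, 5636 CPM).

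Sult6b1 appeared in a narrow window of that order. It stood at 1.97 CPM in cluster 15, 30.5 CPM in cluster 18 (12.5 CPM in library 2 and 75.8 CPM in library 1), 243 CPM (214 to 274) in cluster 11, 38.4 CPM in cluster 10 (immature OSN-like), 2.67 CPM in cluster 2, 2.61 CPM in cluster 4 (unnamed) and 2.6 CPM in cluster 1. In INP-like cells library 2 held 225 CPM (193 to 262) and library 1 held 291.5 CPM (231 to 363). The gene was found in 46.0% of INP-like cells, against 0.186% of B lineage-like cells at median depths of 4966 and 1522 UMIs, and 3 cells held 9.56% of the INP-like UMIs. Both libraries peaked in the same cluster. The genes most like Sult6b1 across classes were Rspry1 (0.841), Tmem35a (0.783), Mab21l1 (0.777), Ppp1r27 (0.776) and Chmp5 (0.771).

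Sult1d1, whose mouse enzyme sulfates catecholamines and other amines, was higher at each step along the same clusters in pooled libraries. Its pooled level was 15.8 CPM in cluster 15, 30.5 CPM in cluster 18, 114 CPM in cluster 11, 276 CPM in cluster 10, 321 CPM in cluster 2, 1085 CPM in cluster 4 and 1463 CPM (1428 to 1498) in cluster 1. In library 2 every step was higher than the one before, while in library 1 cluster 2 (289 CPM, 254 to 327) stood below cluster 10 (369 CPM, 305 to 443). In mature OSN-like cells 97.7% held a UMI. Genes most like it were Meig1 (0.936), Scn3b (0.903), Fam131c (0.887), Nwd1 (0.883) and Tmprss6 (0.881). In sustentacular-like cells Sult1d1 stood at 15.6 CPM with a Sult1d1 to Omp ratio of 0.293, against 0.260 in mature OSN-like cells, and the part of free RNA in that level was not tested. The ratio was 1.98 in immature OSN-like, 1.46 in INP-like, 3.57 in respiratory ciliated-like and 5.56 in HBC-like cells, above that of mature neurons.

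**Figure D2:**
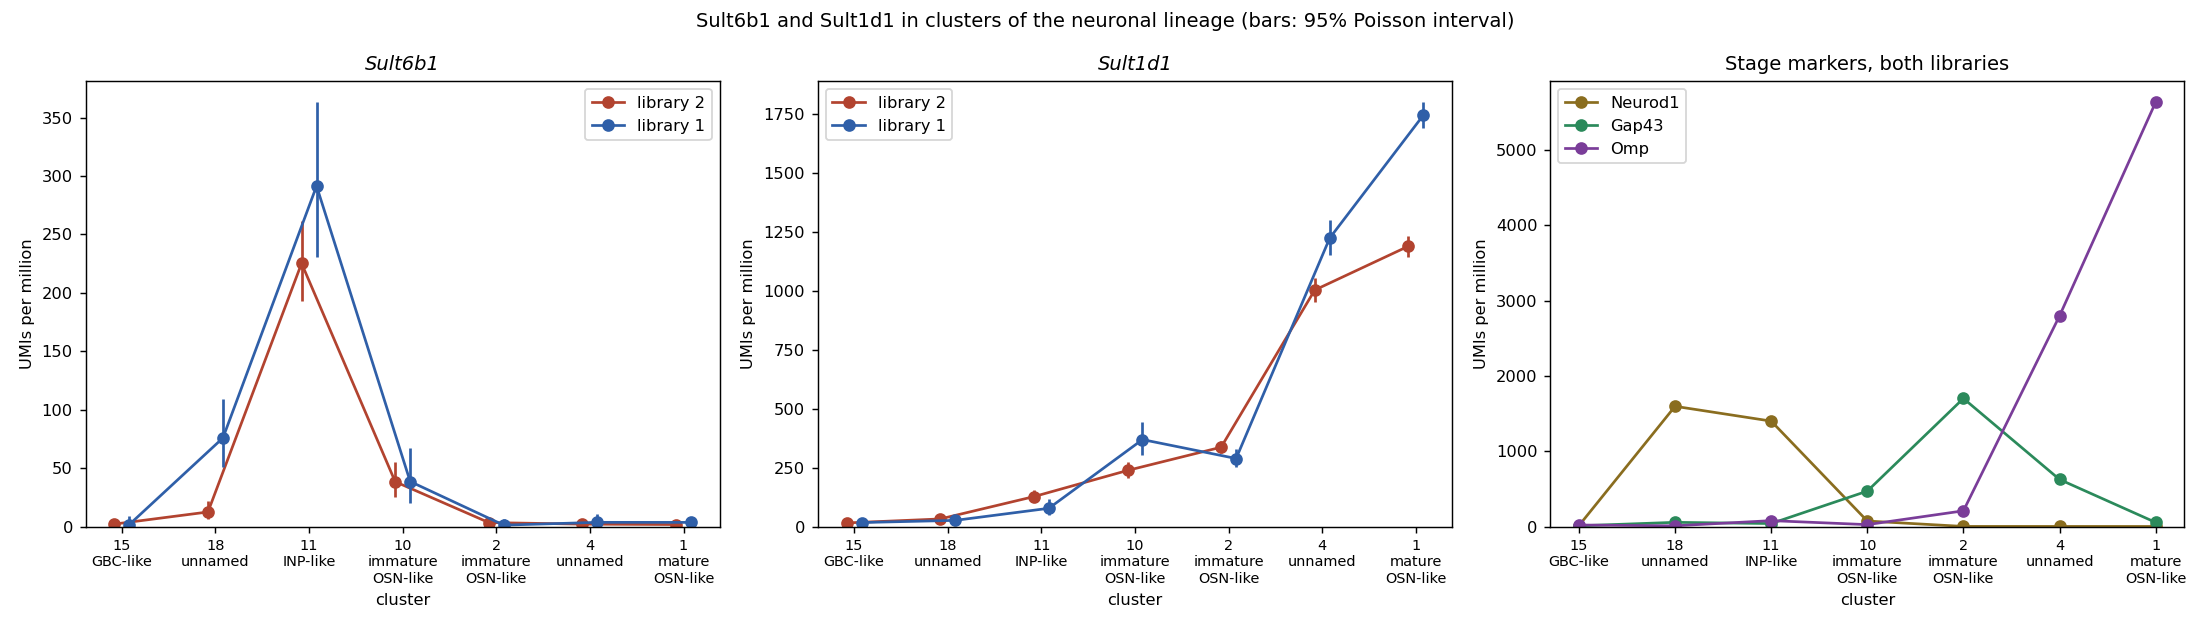
CPM of Sult6b1 and Sult1d1 in 7 clusters of the neuronal lineage, by library with 95% Poisson intervals, and of the stage markers Neurod1, Gap43 and Omp in both libraries together. Sult6b1 peaks in the INP-like cluster 11 in both libraries (225 CPM in library 2 and 291.5 CPM in library 1), and Sult1d1 is highest in the mature OSN-like cluster 1.

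In INP-like cells, where the levels of both paralogues are raised, whether single cells hold one or the other could not be settled. After thinning to 2000 UMIs, 68 of 198 cells held Sult6b1, 20 held Sult1d1 and 1 held both where 6.87 were expected from independence, a ratio of 0.146 (0.00369 to 0.811). Of 2905 genes found in 10% to 90% of these cells, 0.103% had a ratio to Sult6b1 under 0.2. When the random thinning was drawn again 3 times, a check added after the data were seen, 2, 3 and 3 cells held both and the ratios were 0.297 (0.0360 to 1.07), 0.532 (0.110 to 1.56) and 0.491 (0.101 to 1.44). Those 3 intervals include 1, so the pair was not separable from independence at this number of cells. Without thinning, 9 of 202 cells held both where 15.2 were expected.

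Other conjugating enzymes were highest at further steps of the lineage. Sult2b1, a cholesterol sulfotransferase, was highest of the 7 clusters in the unnamed cluster 18, at 190.0 CPM (163.5 to 220) in library 2 and 188 CPM (147 to 237) in library 1. The GBC-like cluster 15 before it held 66.6 CPM and the INP-like cluster 11 after it 54.1 CPM. Sult4a1, a brain sulfotransferase with no settled substrate, stood at 186 CPM in mature and 185 CPM in immature OSN-like cells. Of the 7 clusters its pooled level was highest in the unnamed cluster 4, at 225 CPM. Cluster 10 held 135 CPM and cluster 2 held 206 CPM. In library 1 cluster 2 (251 CPM) stood above cluster 4 (222 CPM). The membrane-bound Mgst3 was the leading glutathione S-transferase of neurons at 1740 CPM in immature and 1126 CPM in mature OSN-like cells.

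Within mature OSN-like cells Sult1d1 was set beside zone markers. Nqo1 marks the dorsal zone of the epithelium and Ncam2 the other zones. Of cells thinned to 2000 UMIs, 116 with Nqo1 and no Ncam2 had 1770 CPM (1545 to 2018) in library 2 and 2349 CPM (2066 to 2660) in library 1. The 145 cells with Ncam2 and no Nqo1 had 1149 CPM (986 to 1332) in library 2 and 1581 CPM (1377 to 1807) in library 1. The 646 cells with neither marker, most of the 907, had 1129 CPM (1050 to 1212) in library 2 and 1670 CPM (1570 to 1775) in library 1, close to the cells with Ncam2. In both libraries the intervals of the Nqo1 and Ncam2 groups did not overlap, and in both groups library 1 was higher. Over 4 draws of the thinning the pooled level was 1870 to 2034.5 CPM with Nqo1 and no Ncam2 and 1335 to 1375.0 CPM with Ncam2 and no Nqo1.

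The third question was which of the enzymes share single sustentacular-like cells. To set depth equal, 1699 cells were thinned to 2000 UMIs. Gstm1 had a median of 22 UMIs per thinned cell and reached 84, Gstm2 a median of 3 and a maximum of 13, and the other 4 a median of 0. Sult1c1 was found in 21.8% of the cells and reached 39 UMIs, and the top 10% of cells held 81.6% of its UMIs. Sult6b1 was found in 7.18% of the cells and reached 19 UMIs. With fewer than 10% of cells holding it, the top 10% hold 100% of its UMIs whatever the spread. The variance over the mean was 10.7 for Gstm1, 8.67 for Sult1c1 and 8.13 for Sult6b1, each above that of at least 99.7% of 5292 genes. It was 1.53 for Gstm2, above that of 97.9% of these genes, 1.02 for Ugt2a1 and 1.01 for Sult1d1. The genes in this ranking were not matched for mean level.

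Sult1c1 and Sult6b1 went together rather than apart. Sult6b1 was present in 18.6% of cells with Sult1c1 and in 3.99% of cells without it. Both were found in 69 cells where 26.6 were expected, a ratio of 2.59 (2.02 to 3.28), with 2.19 in library 2 and 3.16 in library 1. Over 3 further draws of the thinning it was 2.50 to 2.59. Raising the requirement to 2 UMIs of each gene gave 4.22 (3.13 to 5.57). Within the finer clusters of resolution 2.0 the ratio was 1.74 (1.36 to 2.21).

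Gstm1 ran against both. The share of cells with Sult1c1 was 70.4% (64.3 to 76.0) among the 250 cells with 0 to 4 Gstm1 UMIs, 51.2% (43.4 to 59.0) among 168 cells with 5 to 9, 16.5% (12.7 to 20.8) among 346 cells with 10 to 19 and 5.56% (4.18 to 7.23) among 935 cells with 20 or more. In library 2 these shares were 71.1%, 57%, 17.9% and 6.68%, and in library 1 they were 69.3%, 42.6%, 14.7% and 4.14%. Cells with 5 or more Sult1c1 UMIs made up 29.2% of the lowest Gstm1 group and 0.214% of the highest. Sult6b1 was found in 22.8%, 16.1%, 5.2% and 2.14% of the 4 groups in the same order. With the thinning drawn again, Sult1c1 was in 68.9% to 71.7% of the lowest Gstm1 group and in 5.62% to 6.87% of the highest. Since 96.3% of thinned cells held a Gstm1 UMI, a count of cells with both genes can hardly fall below independence, and the ratio for finding Sult1c1 and Gstm1 together was 0.898 (0.802 to 1.002). The cells without Gstm1, a count added after the data were seen, carry the difference. Of 62 such cells 50 held Sult1c1 where 13.5 were expected, a ratio of 3.69 (2.74 to 4.87), with 3.56 (2.40 to 5.09) in library 2 and 3.92 (2.39 to 6.05) in library 1. For Sult6b1 19 of them held the gene where 4.45 were expected, a ratio of 4.27 (2.57 to 6.67). Over 3 further draws of the thinning these ratios were 3.62 to 3.97 for Sult1c1 and 3.99 to 4.91 for Sult6b1.

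Seen from the other side, the Gstm1 level was 13357 CPM (13218 to 13497) in the 1328 cells with 0 Sult1c1 UMIs, 7066 CPM in the 145 cells with 1, 3233 CPM in the 133 cells with 2 to 4 and 1462 CPM (1294 to 1647) in the 93 cells with 5 or more. Gstm2 moved the same way over a smaller range, through 1754.5, 1434.5, 1147 and 919 CPM. Sult6b1 moved the other way, through 56.1, 245, 782 and 1021.5 CPM, and so did Papss2, which makes the sulfate donor PAPS, through 160, 334.5, 523 and 968 CPM. The group with 1 Sult1c1 UMI differed by library for Sult6b1, at 44.9 CPM (19.4 to 88.6) in library 2, an interval that overlaps that of the group with 0 (36.7 CPM, 27.6 to 47.9), and 562.5 CPM (432 to 720) in library 1. At 2 to 4 it was 383 CPM in library 2. In library 2 Sult6b1 was highest in the last group, at 960.3 CPM (797 to 1148), and in library 1 in the group with 2 to 4 Sult1c1 UMIs, at 1404 CPM (1185 to 1651) beside 1150 CPM (895 to 1455) in the last, intervals that overlap. Ugt2a1 stood at 89.6 CPM (78.6 to 102) in the first group and 167 CPM (113 to 237) in the last. Sult1e1, at 68.2 CPM (58.6 to 78.8) in the first group, had 0 UMIs in the last, whose upper limit was 19.8 CPM.

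The phase I enzymes divided along the same line. Cyp2g1 stood at 8044, 14497, 19399 and 19242 CPM over the same 4 groups, and Cyp2a5 at 18385, 27852, 33199 and 37333 CPM. Cyp4b1 stood at 526, 145, 18.8 and 0 CPM (upper limit 19.8), and Ephx1 at 1443, 1121, 932 and 500 CPM. Cbr2, a carbonyl reductase, held between 9718 and 10345 CPM in all 4. Depth before thinning and mitochondrial share, a sign of RNA quality, moved little: their medians were 6090.5 UMIs and 7.92% in the first group and 6885 UMIs and 8.67% in the last, and their part in the result was not tested.

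**Figure D3:**
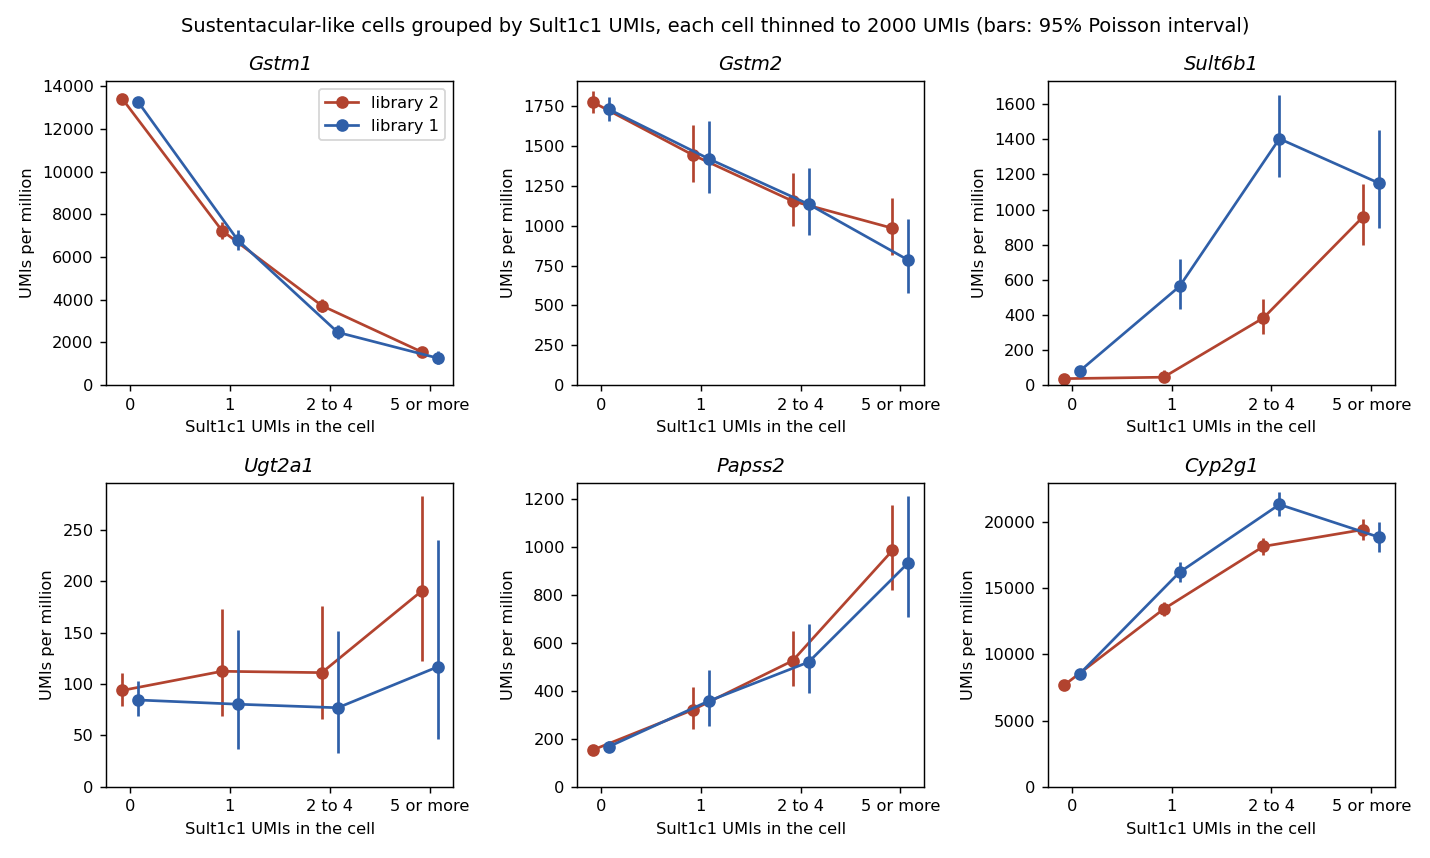
Sustentacular-like cells grouped by their Sult1c1 UMIs after thinning to 2000 UMIs, with the CPM of 6 genes per group for library 2 and library 1 and bars for 95% Poisson intervals. In both libraries Gstm1 and Gstm2 step down and Papss2 steps up, while in library 1 Sult6b1 and Cyp2g1 are highest at 2 to 4 Sult1c1 UMIs, with pooled Gstm1 at 13357 CPM at 0 and 1462 CPM at 5 or more Sult1c1 UMIs.

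The rank correlation across cells between Sult1c1 and Gstm1 was -0.540 in library 2 and -0.514 in library 1. Between Sult6b1 and Gstm1 it was -0.230 in library 2 and -0.297 in library 1, and between Gstm1 and Gstm2 0.428 in library 2 and 0.422 in library 1. These are descriptions over cells of 1 library each. Among all 15 pairs of the 6 enzymes, 11 were found together less often than independence gives, where 48.5% of 2837 genes found in 10% to 90% of the cells were under 1 with Sult1c1. That count depended on the random thinning and was 6, 9 and 9 in 3 further draws, so it is not read as a result. The interval of 14 of the 15 pairs spanned 1, but for pairs with Gstm1 or Gstm2, which most cells hold, this is an insensitive measure. Counted by absence, 23 cells lacked both Gstm1 and Gstm2 where 5.22 were expected, a ratio of 4.41 (2.79 to 6.61) that was 3.07 to 3.68 in 3 further draws. For Ugt2a1 in cells without Gstm1 the ratio was 1.97 (1.22 to 3.01), but the interval included 1 in 2 of those 3 draws.

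**Figure D4:**
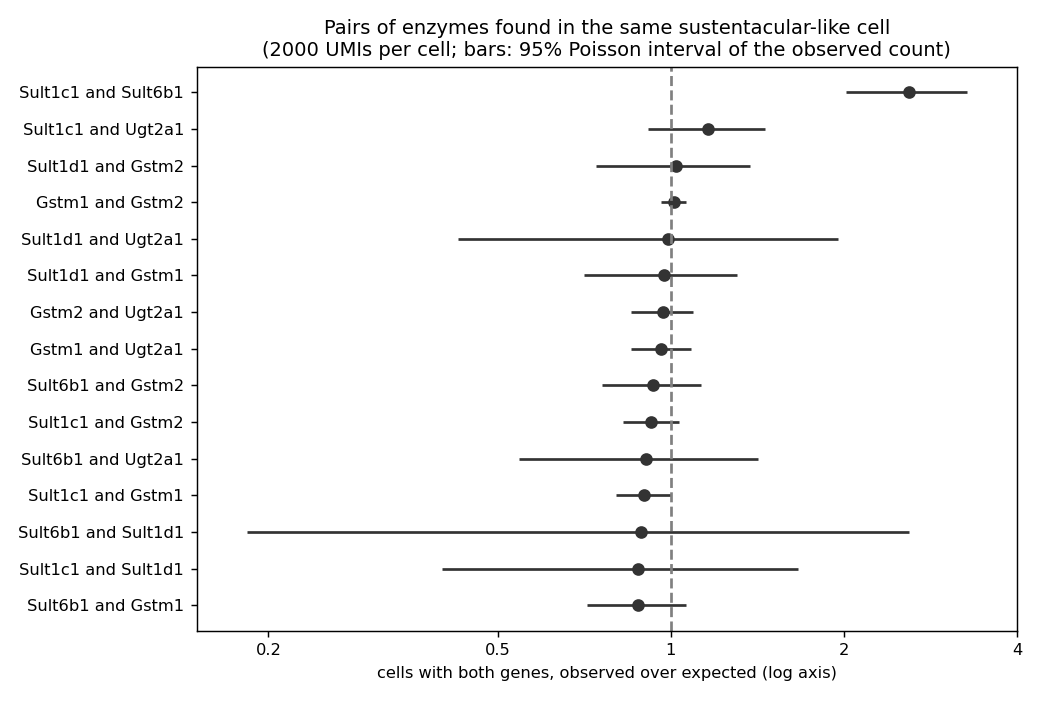
Observed over expected number of sustentacular-like cells holding both genes of a pair (log axis) for all 15 pairs, with 95% Poisson intervals of the observed count and a dashed line at 1. Only the pair of Sult1c1 and Sult6b1, at 2.59 (2.02 to 3.28), has an interval clear of 1. For pairs with Gstm1 or Gstm2, which most cells hold, this measure is insensitive.

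Genes outside the family that were found with Sult1c1 most and least often were ranked among the same 2837 genes, of which 5.68% had a ratio over 1.25 and 7.05% under 0.8. The 10 highest were Crabp1 (a retinoic acid binding protein, 3.26), Svopl, Mapt, the zinc transporter Slc39a2, Ckb, the receptor Bmpr1b, Got1, Fzd8, Slco4c1 and Papss2 (1.76). The 10 lowest were Cyp4b1 (0.188), the glutamine synthetase Glul (0.196), Fgl2, Cyp2b10, Ifi27l2a, Ptn, Lcn2, Isl1, Insl6 and Sap30 (0.368). All 10 of the first group were above 1 and all 10 of the second below 1 in library 2 and in library 1, where the ranking had used both together.

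Finer clustering placed the contrast in 2 parts of the sustentacular-like class, formed without any phase II gene. Fine cluster 0 had 1069 cells with Gstm1 at 12428 CPM (12359 to 12498) and Sult1c1 at 118 CPM. Fine cluster 1 had 686 cells with Gstm1 at 7478 CPM (7397 to 7560), Sult1c1 at 1126 CPM and Sult6b1 at 432 CPM, against 42.5 CPM for Sult6b1 in fine cluster 0. Fine cluster 1 made up 46.2% of the sustentacular-like cells in library 2 and 28.9% in library 1.

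Among cells rich in Sult1c1, whether Sult6b1 and Acsm4 mark different cells was not settled. Acsm4, an acyl-CoA synthetase known as a dorsal zone gene, stood at 5.27 CPM in cells without Sult1c1 and 312 CPM in those with 5 or more UMIs, but at 9.26 CPM (1 UMI) in the 54 cells with 5 or more Sult6b1 UMIs. Reg3g, an antimicrobial lectin, was at 440.5 CPM without Sult1c1 and 53.8 CPM with 5 or more, and had 0 UMIs in the 54 Sult6b1-rich cells. Among 226 cells with 2 or more Sult1c1 UMIs, a comparison chosen after these values were seen, 53 held Sult6b1, 47 held Acsm4 and 3 held both where 11.02 were expected (ratio 0.272, 0.0561 to 0.795). Library 2 had 3 such cells where 5.6 were expected, a ratio of 0.536 (0.110 to 1.57) whose interval includes 1, and library 1 had 0 where 5.27 were expected. In 3 further draws of the thinning the ratio was 0.350 (0.0954 to 0.897), 0.360 (0.0982 to 0.923) and 0.572 (0.210 to 1.24), the last with an interval that includes 1. Gstm1 was low in the Sult6b1-rich cells as well, at 2028 CPM (1768 to 2315).

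The fourth question was how the enzymes differed between the libraries. In sustentacular-like cells 0 of the 6 passed 2-fold, where 0.435% of 10343 genes were higher and 0.193% lower in library 2 by 2-fold or more. The log2 ratio of library 2 over library 1 was 0.90 for Sult1c1 (counting interval 0.82 to 0.98), -0.82 for Sult6b1 (-0.94 to -0.70) and -0.56 for Sult1d1. It was -0.12 for Gstm1, -0.06 for Gstm2 and 0.12 for Ugt2a1. The median over all genes tested was 0.02. Sult1c1 and Sult6b1, found in the same cells more often than expected, thus had ratios of opposite sign.

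Inside the fine clusters Sult1c1 stood at 152 CPM in library 2 and 75.3 CPM in library 1 for fine cluster 0, and 1180 CPM in library 2 and 993 CPM in library 1 for fine cluster 1. For Sult6b1 the values were 24.2 CPM in library 2 and 65.3 CPM in library 1 in fine cluster 0, and 300.0 CPM in library 2 and 755 CPM in library 1 in fine cluster 1. By CPM the direction of each gene was thus the same in both fine clusters. The share of thinned cells with Sult1c1 did not follow it in fine cluster 1. There it was 37.4% (32.7 to 42.2) in library 2 and 49.2% (42.1 to 56.4) in library 1. In fine cluster 0 it was 13.9% in library 2 and 7.75% in library 1. The counting interval does not hold the spread between animals, which these 2 libraries do not measure.

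In mature OSN-like cells Sult1d1 was at 1190 CPM (1147 to 1235) in library 2 and 1747 CPM (1693 to 1802) in library 1, a log2 ratio of -0.55. The share of these cells with a UMI was 96.1% in library 2 and 99.5% in library 1. In cluster 4 the log2 ratio was -0.29, with 1004 CPM in library 2 and 1225 CPM in library 1, and in immature OSN-like cells it was -0.015, with 307 CPM in library 2 and 310 CPM in library 1 (background 1.47% of 8084 genes higher and 1.79% lower). These 3 ratios did not pass 2-fold. The background in mature OSN-like cells was 2.39% of 8521 genes higher and 1.43% lower.

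In HBC-like cells Sult1d1 moved the other way and passed 2-fold, at 288 CPM (269 to 308) in library 2 and 41.3 CPM (32.9 to 51.3) in library 1, a log2 ratio of 2.77. There 1.53% of 8705 genes were higher and 0.494% lower by 2-fold or more. Cluster 5 carried most of it, with 503 CPM in library 2 and 72.4 CPM in library 1, and a UMI in 38.3% of the cells of library 2 and 9.86% of those of library 1. Cluster 3 had 107 CPM in library 2 and 14.2 CPM in library 1. In library 2, 3 cells held 13.7% of the HBC-like UMIs, and in library 1 they held 42.7%. With at most 5% mitochondrial UMIs the log2 ratio was 0.73. Respiratory ciliated-like cells had the same direction, with 393 CPM over 50 cells in library 2 and 37.1 CPM over 28 cells in library 1, though 85.7% of the library 1 UMIs lay in 3 cells. In B lineage-like cells Sult1d1 had 4 UMIs in library 2 and 28 UMIs in library 1, found in 0.929% of the cells, too few to read a direction from.

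Of the 10 classes Sult1c1 was higher in library 2 in all but ionocyte-like cells, where it was lower. The log2 ratio was 1.61 in HBC-like cells (89.9 CPM in library 2 and 28.7 CPM in library 1), 0.58 in Bowman gland-like cells (background 1.68% of 5903 genes higher and 1.42% lower) and -0.91 in ionocyte-like cells (1.67% of 4658 genes higher and 0.601% lower by 2-fold or more). The ratio was 3.57 in immature OSN-like cells, with 51.9 CPM (131 UMIs, 59.5% of them in 3 cells) in library 2 and 3.45 CPM (4 UMIs) in library 1, and 2.34 in mature OSN-like cells. It was 3.34 in tuft-like cells, with 79 UMIs in library 2, of which 3 cells held 83.5%, and 6 UMIs in library 1, and 2.22 in respiratory ciliated-like cells, with 177 CPM in library 2 and 37.1 CPM in library 1. The HBC-like, tuft-like, respiratory ciliated-like and both OSN-like ratios were thus past 2-fold with at least 50 UMIs. The background was 0.997% of 2207 genes higher and 0.634% lower in tuft-like cells and 2.74% of 4053 genes higher and 2.52% lower in respiratory ciliated-like cells. Beside these stand the levels in cells that should lack the gene: B lineage-like cells held 78.9 CPM in library 2 and 12.3 CPM in library 1, and mature OSN-like cells 33.1 CPM in library 2 and 5.75 CPM in library 1. In neutrophil-like cells it was 29.1 CPM in library 2 and 31.0 CPM in library 1. The part of free RNA in the HBC-like difference was not tested, and 3 cells held 56.4% of the HBC-like Sult1c1 UMIs of library 2 and 63.2% of those of library 1. The ionocyte-like difference runs against the B lineage-like one.

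Gstm1 and Gstm2 differed little between libraries in sustentacular-like and ionocyte-like cells and more in tuft-like and respiratory ciliated-like cells. The log2 ratio of Gstm1 was -0.12 in sustentacular-like, -0.002 in ionocyte-like, -0.48 in tuft-like and 0.35 in HBC-like cells. In tuft-like cells Gstm2 had -0.45, and in respiratory ciliated-like cells the ratio was 0.56 for Gstm1 and 0.85 for Gstm2. Gstm1 had 0.73 in mature OSN-like and 1.62 in B lineage-like cells. For Sult6b1 in INP-like cells the ratio was -0.37, with a counting interval of -0.76 to 0.03 that includes 0 (background 1.84% of 3209 genes higher and 0.467% lower). In ionocyte-like cells 97.1% of the Sult6b1 UMIs lay in 3 cells, and no ratio is read from them.

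Among the clusters left without a name, clusters 13 and 19 held the most Sult1c1, followed by cluster 29 (352 CPM in library 2 and 352 CPM in library 1) and cluster 7 (294 CPM in library 2 and 213.5 CPM in library 1). Cluster 7 had a median of 12873 UMIs, with Cyp2g1 in 98.8% and the neuronal marker Omp in 68.4% of its cells. The part of doublets in its Sult1c1 level was not tested. Cluster 13, led by the gland genes Chil6 and Dcpp3, held 629 CPM in library 2 and 321 CPM in library 1, a log2 ratio of 0.97 (background 0.959% of 4694 genes higher and 0.724% lower). Cluster 19, led by Bpifa1 and Scgb3a1, held 596.5 CPM in library 2 and 261 CPM in library 1, a log2 ratio of 1.19, past 2-fold (background 1.37% of 3578 genes higher and 0.699% lower). Cluster 19 also held Sult1d1, at 445 CPM in library 2 and 74.7 CPM in library 1, with 37.9% of the library 2 UMIs and 84.1% of the library 1 UMIs in 3 cells.

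The wider phase II set was taken from lists of sulfotransferases, glutathione S-transferases, UDP-glucuronosyltransferases, methyl-, acetyl- and glycine transferases and enzymes of cofactor supply. Of 87 listed genes 31 reached 50 CPM in at least 1 of the 10 classes, 25 of them outside the 6. Of these 25, 10 were highest in sustentacular-like, 7 in respiratory ciliated-like and 3 in HBC-like cells, and 1 each in Bowman gland-like, ionocyte-like, GBC-like, immature OSN-like and mature OSN-like cells. Of all 6998 genes at that level 9.5% were highest in sustentacular-like, 16.8% in respiratory ciliated-like and 6.74% in HBC-like cells.

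Counted were the 15 other glutathione S-transferases with at least 50 UMIs over sustentacular-like and mature OSN-like cells together. A gene can reach that through 1 class alone, which sets part of the count. Gsta2, for example, had 93.4 CPM in sustentacular-like and 0.433 CPM in mature OSN-like cells. Of the 15, 12 were at least 2-fold higher and 2 at least 2-fold lower in sustentacular-like cells. Their median log2 ratio was 3.50, against -0.15 for all genes. The background under the same limit was 23.3% of 11878 genes higher and 27.2% lower. Mgst1, a membrane-bound transferase, had 1960 CPM in sustentacular-like and 13.9 CPM in mature OSN-like cells, and Gsta4, which acts on lipid peroxidation products, 868 CPM in sustentacular-like and 12.6 CPM in mature OSN-like cells. Against HBC-like cells 8 of 17 were higher and 2 lower (background 10.3% and 13.1% of 11386 genes), with a median of 0.77. Against Bowman gland-like cells 9 of 16 were higher and 2 lower (background 30.2% and 5.95% of 10902 genes), with a median of 1.36 beside 0.68 for all genes. Gsto1 was an exception, at 1.54 CPM in sustentacular-like cells and 695 CPM in HBC-like cells.

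The other sulfotransferases did not share 1 class. Sult1e1 led in Bowman gland-like cells at 943.5 CPM, with 492 CPM in HBC-like and 65.4 CPM in sustentacular-like cells. Sult1b1 stood at 87.2 CPM in respiratory ciliated-like and 84.5 CPM in sustentacular-like cells, and Sult5a1 at 63.1 CPM in HBC-like cells. Of 6 with at least 50 UMIs over sustentacular-like and HBC-like cells together, 1 was higher and 4 were lower in sustentacular-like cells. Their median log2 ratio was -1.07. In cofactor supply, Papss2 (251 CPM) and Ugdh, which makes the UDP-glucuronic acid donor (566 CPM), led in sustentacular-like cells, and Gclm, a subunit of the enzyme that starts glutathione synthesis, in HBC-like cells (509.5 CPM).

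Phase I genes were set beside them. Of 18 with at least 50 UMIs over sustentacular-like and mature OSN-like cells together, 17 were at least 2-fold higher in sustentacular-like cells and 1 was lower. Their median log2 ratio was 5.92, and here too a gene could pass the limit through 1 class alone. Several of these, such as Cyp2g1 and Cyp2a5, also served as markers of the class. Of 9 Nrf2 target genes 3 were higher and 3 lower in the same comparison, with a median of 0.24, and of 4 efflux transporters 1 was higher and 0 lower. The background was 23.3% of 11878 genes higher and 27.2% lower, so the Nrf2 and efflux counts are not read as a result about these genes. Between the libraries, 0 of the 14 other glutathione S-transferases, 0 of 4 sulfotransferases and 0 of 10 cofactor genes passed 2-fold in sustentacular-like cells. Their medians were -0.04, 0.31 and -0.04. Of all 10343 genes only 0.435% were higher and 0.193% lower there, so counts of 0 in short lists say little.

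**Figure D5:**
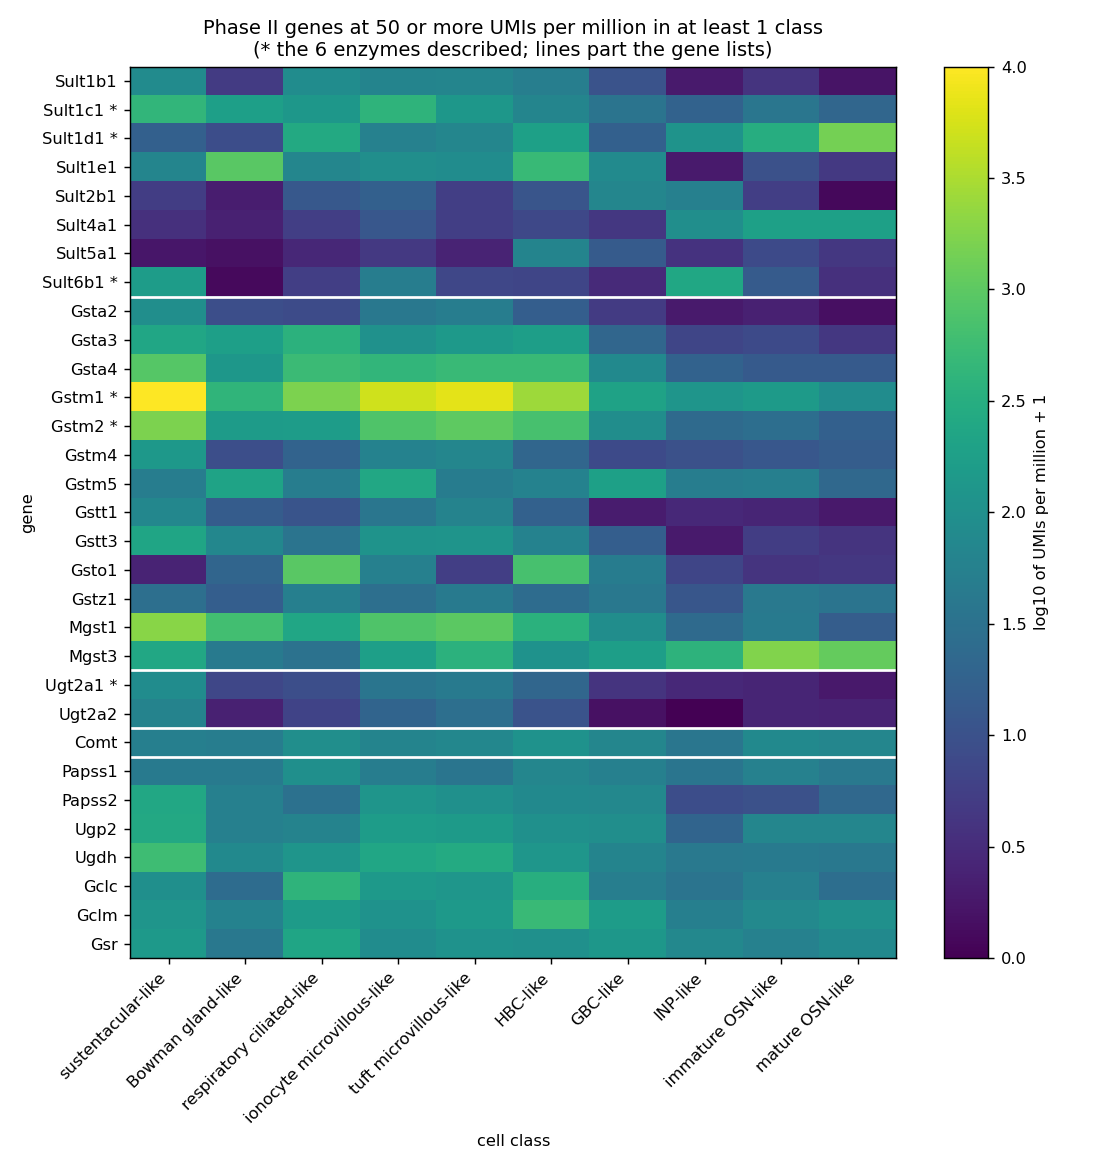
Level of the 31 phase II genes that reached 50 CPM in at least 1 of 10 classes, as log10 of CPM plus 1, with asterisks on the 6 enzymes and lines between the lists. The glutathione S-transferases are mostly brightest in the sustentacular-like column, while the 8 sulfotransferases have their highest levels in 7 different columns.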

How the data were processed

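The deposited matrix of UMI counts holds 31053 genes and 12491 barcodes of both libraries together. Per the submitters' processing notes it was made with Cell Ranger 3.0.2 on mm10, and no source used here says whether reads were subsampled on aggregation. Per the labels' protocols the libraries are Chromium 3′ v3. Kept were cells with at least 1000 UMIs, 500 genes and at most 10% mitochondrial UMIs. These limits removed 2724 of 7990 barcodes in library 2 and 1469 of 4501 in library 1. Most of the removed barcodes, 2380 in library 2 and 1294 in library 1, were over the mitochondrial limit. Cells were clustered with scanpy 1.11.5 and leidenalg 0.10.2 (2000 variable genes without phase II genes, 30 components, 15 neighbours, resolution 1.0) and named from markers, with a naming rule added after the first cluster table was seen. The doublet caller marked 7 of 8298 cells, too few to have worked, so doublets were kept. Ratios used 1 CPM as pseudocount and genes with at least 50 UMIs, and a call was 2-fold. Cells were thinned to 2000 UMIs with 1 random draw. The ratio and co-detection steps were tested on simulated data.

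The 6 genes and all lists were chosen with earlier results of these data known. Named besides them were listed phase II genes at 50 CPM in an epithelial or neuronal class, the 5 genes most like each enzyme over class sums, and the 10 highest and 10 lowest in co-detection with Sult1c1. Total kept UMIs were 37996298 in library 2 and 21444390 in library 1.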

Additional observations from a re-analysis of the deposited data

Results flagged for a closer look

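For 4 of the enzymes the libraries differed in opposite directions in different cell classes, with counting intervals clear of 0 on both sides. The share of all genes that meet this rule was not computed, so the count is not read as unusual. For a gene with many UMIs, such as Gstm1, a small ratio is already clear of 0. These differences between classes were not tested, since there is 1 library per side. The log2 ratio of library 2 over library 1 for Sult1c1 was 2.34 in mature OSN-like cells and -0.91 in ionocyte-like cells. For Sult1d1 it was 2.77 in HBC-like cells and -0.56 in sustentacular-like cells. For Gstm1 it was 0.73 in mature OSN-like cells and -0.12 in sustentacular-like cells, and for Gstm2 0.94 in mature OSN-like cells and -0.064 in sustentacular-like cells. The mature OSN-like levels of Sult1c1, Gstm1 and Gstm2 and the sustentacular-like level of Sult1d1 are low, and the part of free RNA in them was not tested.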

How the results depend on the processing

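The number of enzymes past 2-fold between libraries in sustentacular-like cells, 0 as reported, was 1 without a cell filter, 3 with at most 5% mitochondrial UMIs, which left 74 sustentacular-like cells, and 1 without the 3 cells per class and library that held most UMIs of a gene. The number of pairs under independence, 11 as reported, was 3 with at most 5% mitochondrial UMIs and 6 in 1 of 3 further draws of the thinning, which were added after the data were seen. With at most 5% mitochondrial UMIs 3 log2 ratios changed sign, to 0.10 for Gstm1, 0.030 for Gstm2 and -0.18 for Ugt2a1. The cause was not tested. Over all alternatives the log2 ratio in sustentacular-like cells was 0.46 to 1.12 for Sult1c1 and -4.40 to -0.78 for Sult6b1, and the ratio for Sult1c1 with Sult6b1 was 1.17 to 4.22. Without a cell filter the cells were clustered anew, and 1095 were named sustentacular-like. Left unnamed there were a cluster of 1686 cells led by Cyp4b1 and Gstm1 and another of 601 cells led by Sult1c1. Among the named classes Gstm1 was then highest in tuft-like cells and Sult6b1 in sustentacular-like cells. The part of the naming in this change was not tested. At resolution 0.5 Sult6b1 was also highest in sustentacular-like cells. No paired analysis was possible because each side has 1 library. Depth limits what presence in thinned cells can show for Ugt2a1 and Sult1d1, each with at most 3 UMIs per thinned sustentacular-like cell. For Ugt2a1 the 3′ end shared with Ugt2a2 is a further limit.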
